A study of Oryctolagus cuniculus with 34 samples.

Results

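135 genes were higher in repaired than in control supraspinatus muscle at each of 1, 2, 4 and 8 weeks after a delayed rotator cuff repair, among 23669 genes in the count table and 10052 with a mean level of at least 2 CPM (the counts of a gene scaled to a fixed library total). The genes were chosen from the measured difference itself. For each rabbit the difference d was log2(CPM + 1) of the repaired left muscle minus that of the right control muscle, and a gene was a member where the mean d over rabbits was at least 0.8 at all 4 times. 142 genes met this rule, and 7 of them were left out by name, from a list of 12 that includes COL1A1 and COL3A1. Repair against control differences of members are therefore given as a description, with no test. 53 of the 135 members could be matched to a gene symbol and 82 are known here by identifier only.

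The muscles came from 17 skeletally mature female New Zealand White rabbits of about 6 months. In every animal the left supraspinatus tendon was cut from the humerus, left for 8 weeks and then repaired, and the right shoulder of the same animal was not repaired and served as control (the labels describe it both as a control and as a sham operation with a skin cut). Both muscles were sequenced as RNA from 4 rabbits at 1 week (rabbits 5 to 8), 5 at 2 weeks (59 to 62 and 64), 4 at 4 weeks (63 and 66 to 68) and 4 at 8 weeks (1 to 4), 34 libraries in all, so every repaired group carries the earlier tenotomy and no group had a tenotomy without repair. The 1-week and 8-week libraries carry sample names of one series and the 2-week and 4-week libraries those of another, so times were tested only within a series. Totals on genes lay between 9220035 and 28395188 counts per library (median 12127768), apart from the left library of rabbit 3 (8756033), which the study removed at quality control. That pair entered neither the rule nor d, so 16 rabbits remained, and its control library stayed in the fit across genes and in the spread of controls. 1 control library stood apart for these genes: the right muscle of rabbit 4 (8 weeks, 23569025 counts) was the highest of 16 controls for 86 of the 135 members, and for 12.7% of the 10052 genes. Without rabbit 4 the median d of the members at 8 weeks was 1.10, against 1.03 with it. Muscle fibre markers were present in every library, with 5 of 10 markers matched to a symbol and none of these at 0 throughout a group. Here and below, a measured marker is one that could be matched to a symbol. The rest of a marker list may be unlabelled and need not be absent.

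25 of the 53 named members are on lists of collagens, matrix glycoproteins and proteoglycans or matrix proteases. The extracellular matrix is the meshwork of collagen fibrils, proteoglycans and glycoproteins around muscle fibres and in tendon. Fibroblasts of muscle and tendon make most of it, small leucine-rich proteoglycans such as fibromodulin set how collagen fibrils grow and pack, and proteases such as MMP2 and cathepsin K turn the matrix over. 23 of the named members are on none of the lists used below.

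Across the 135 members the median d was 2.26 and 2.12 in the first and second week after repair, 1.59 in the fourth and 1.03 in the eighth, where the median over all 10052 genes was 0.36, 0.20, 0.24 and 0.07. With scaling by TMM (trimmed mean of M-values), which brought the median of all genes to between −0.08 and 0.00, the members' medians were 1.86, 1.84, 1.35 and 0.97. Relative to all genes the members thus stood 1.90, 1.92, 1.35 and 0.96 higher on the CPM scale and 1.90, 1.92, 1.38 and 0.97 higher on the TMM scale. d was largest at 1 week for 63 members, at 2 weeks for 43, at 4 weeks for 28 and at 8 weeks for 1. Over the 10052 genes these counts were 4941, 1961, 2235 and 915. In proportion, the members' counts at 1 and 4 weeks were thus close to those over all genes. d was smallest at 8 weeks for 105 members, and for 5464 of the 10052 genes. The last time decided most of the membership: 643 genes reached a d of 0.8 at 1, 2 and 4 weeks but not at 8 weeks, against 2, 17 and 18 genes that missed only 1, 2 or 4 weeks. Just inside the rule lay a gene with no symbol (d of 0.801 at 8 weeks), IGFBP6 (0.805) and SVEP1 (0.808), and just outside lay ADIPOQ (0.7995) and 2 genes with no symbol (0.798 and 0.795), all by their value at 8 weeks.

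**Figure D1:**
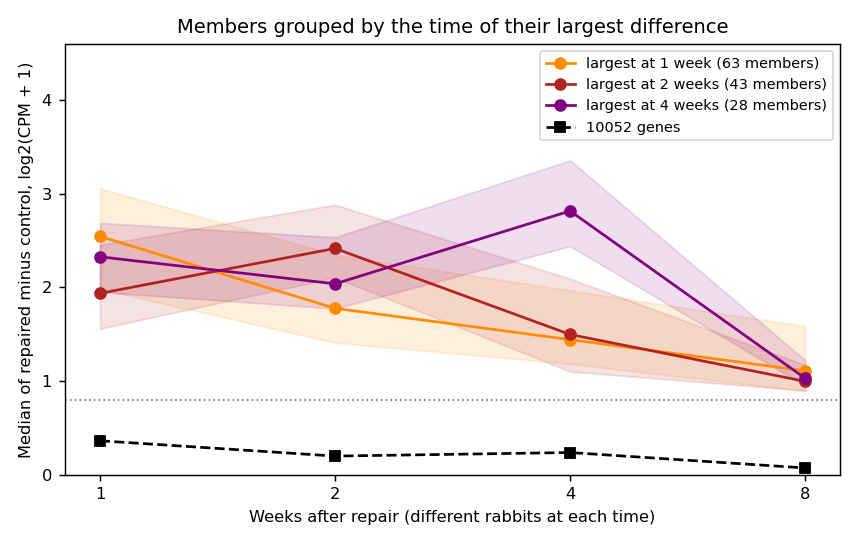
Median d (repaired minus control, log2(CPM + 1), vertical axis) of the members at 1, 2, 4 and 8 weeks after repair, grouped by the time at which d was largest, with shaded bands for the middle 50% of the members, a dashed line for all 10052 genes and a dotted line at 0.8. The 28 members with the largest d at 4 weeks had medians of 2.33, 2.04, 2.82 and 1.03, and all 3 groups came close to each other at 8 weeks (1.11, 1.00 and 1.03); the grouping used these same values.

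The named members fell unevenly over 19 lists of genes grouped by role. Only genes with a symbol could be placed on a list. Of the 10052 genes 2866 had one, and 53 of these were members. The list of matrix glycoproteins and proteoglycans held 16 members of 61 genes with a symbol and at least 2 CPM: ABI3BP, AEBP1, CILP, FBLN1, FMOD, FNDC1, IGFBP6, KERA, MFAP4, OGN, OLFML2B, PRELP, SRPX, SVEP1, THBS1 and THBS4. The collagens held 5 of 16 (COL1A2, COL8A2, COL11A1, COL12A1 and COL16A1), matrix proteases and their inhibitors 4 of 24 (ADAMTS12, ADAMTSL1, CTSK and MMP2), and growth factors and secreted ligands 3 of 28 (ANGPTL7, DKK3 and SLIT3). Lipid synthesis and storage gave 1 of 24 (THRSP) and retinoid, steroid and xenobiotic metabolism 1 of 15 (CYP1B1). The other 13 lists held no named member. The 82 members without a symbol could not be placed, so these lists may still hold some of them. Some lists had thin cover. At 2 CPM or more, 8 of 37 adipocyte regulators and secreted factors and 2 of 35 lymphocyte and immunoglobulin genes were placed. Genes left out by name stayed in the totals of the lists. On the 13 lists, 1 such gene met the thresholds in matrix crosslinking and collagen processing and 1 in amino acid, folate and stress response. On the lists with members, 1 each did so in collagens, lipid synthesis and growth factors, and 2 in matrix glycoproteins. Among the 13 lists without a named member, 15 of 26 placed genes of myeloid receptors and lysosome reached 0.8 at 1, 2 and 4 weeks but not at 8 weeks. So did 15 of 37 receptors and signalling genes of stromal cells. The other genes of the 19 lists, without the members and the names left out, were fitted by limma-voom with Benjamini-Hochberg adjustment over all genes. They are what the rule left over from these same contrasts, so their counts are a description. Nothing is read from the counts at 8 weeks, the time that decided most of the membership. Of 44 other matrix glycoprotein and proteoglycan genes, 6 were called higher after repair at 1 week, 14 at 2 weeks and 0 at 4 and 8 weeks, where 6.81%, 7.95%, 0.0773% and 0.00773% of all genes tested were. Of 10 other collagens 3, 4, 0 and 0 were called higher, and of 26 other matrix proteases and inhibitors 4, 6, 0 and 0. At an unadjusted p under 0.05, 9, 4 and 4 genes of the 3 lists were higher at 4 weeks and 3, 1 and 2 at 8 weeks; edgeR called 2, 0 and 1 and DESeq2 6, 1 and 2 higher at 4 weeks, and both called 0 at 8 weeks. limma-voom called none of the other genes of these 3 matrix lists lower at any of the 4 times. Elsewhere some were lower, such as 3 and 2 of 32 growth factors and secreted ligands at 1 and 2 weeks. Higher calls were not particular to the matrix lists. Of 9 adipocyte regulators and secreted factors 4, 5, 0 and 0 were called higher at the 4 times. Of 42 receptors and signalling genes of stromal cells 4, 13, 0 and 0 were, and of 20 lipid synthesis and storage genes 0, 2, 1 and 0.

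Fibrillar collagen genes were among the named members with the largest differences. COL1A2 encodes the second chain of type I collagen, the main collagen of tendon and muscle connective tissue. At 1 week it was at 1849, 1714, 6476 and 1602 CPM in the repaired muscles of rabbits 5, 6, 7 and 8 and at 199, 261, 253 and 174 CPM in their controls. At 2 weeks it was at 28400.1, 148, 342, 5928 and 80.8 CPM in the repaired muscles of rabbits 59, 60, 61, 62 and 64, against 178, 112, 155, 96.1 and 96.1 CPM in the controls. All 4 repaired muscles stood above every control at 1 week, whereas at 2 weeks rabbits 59 and 62 were far above, rabbit 61 was a little above, rabbit 60 lay within the range of the controls and rabbit 64 below it. At 4 weeks the repaired levels were 1156, 557, 469 and 140.0 CPM in rabbits 63, 66, 67 and 68 and the control levels 69.4, 62.9, 179 and 146 CPM. At 8 weeks they were 1497, 488 and 1121 CPM in rabbits 1, 2 and 4 and 294, 196 and 526 CPM in the controls. Rabbit 68 had 140.0 CPM in the repaired and 146 CPM in the control muscle, and at 8 weeks the repaired muscle of rabbit 2 lay below the control muscle of rabbit 4, so the groups overlapped at both times. The mean d was 3.45 ± 0.85 (SD, n = 4), 2.91 ± 3.46 (SD, n = 5), 2.12 ± 1.82 (SD, n = 4) and 1.58 ± 0.67 (SD, n = 3) at the 4 times. From bulk muscle, more cells of a type and more RNA per cell cannot be told apart, for this gene and all others below.

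COL11A1, a minor fibrillar collagen that nucleates fibrils, was near the floor of detection in most controls. Its repaired levels were 20.5, 62, 39.3 and 61 CPM at 1 week (rabbits 5 to 8), against 0.752, 0.31, 2.29 and 0.391 CPM in the controls. At 2 weeks they were 1011, 0.447, 5.6, 262 and 0.568 CPM (rabbits 59 to 62 and 64), against 0.203, 0.47, 0.287, 0.873 and 0.282 CPM. The groups were apart at 1 week, and at 2 weeks rabbits 60 and 64 were as low as controls. At 4 weeks the repaired muscles gave 17.4, 9.98, 4.54 and 0.375 CPM and the controls 0.721, 0.831, 0.49 and 0.202 CPM, and at 8 weeks 66, 10.2 and 66.9 CPM and 1.31, 0.701 and 24.9 CPM in rabbits 1, 2 and 4. The control muscle of rabbit 4 had the highest control level here too. The mean d was 4.58 ± 1.11, 3.9 ± 4.33, 2.02 ± 1.37 and 2.99 ± 1.75 at 1, 2, 4 and 8 weeks (SD over 4, 5, 4 and 3 rabbits). COL12A1, which encodes a collagen that sits on the surface of fibrils, had d of 2.77 ± 0.42, 3.19 ± 3.3, 2.19 ± 1.66 and 1.7 ± 0.43, and it was higher in the repaired muscle of 14 of 16 rabbits, as was COL1A2; COL11A1 was higher in 15.

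Several members are genes typical of tendon. KERA (keratocan), FMOD (fibromodulin), PRELP and OGN (osteoglycin) encode small leucine-rich proteoglycans, and THBS4 encodes a matrix glycoprotein found at tendon and muscle attachments. KERA was at 47.3, 39, 74 and 57.3 CPM in repaired and 3.13, 3.72, 7.11 and 2.86 CPM in control muscle at 1 week. At 2 weeks it was at 757, 3.13, 18.6, 211 and 2.27 CPM and 2.64, 3.01, 1.62, 3.39 and 1.98 CPM. KERA was higher in the repaired muscle of all 16 rabbits, but in rabbits 60, 64 and 68 by a d of only 0.04, 0.14 and 0.14. At 4 weeks it was at 66.5, 39.3, 7.09 and 0.656 CPM and 0.992, 0.369, 2.25 and 0.506 CPM, and at 8 weeks at 52.8, 29.7 and 23 CPM and 2.62, 3.2 and 11.6 CPM. At 8 weeks every repaired muscle of rabbits 1, 2 and 4 stood above every control, as at 1 week. FMOD had the highest mean d of any named member at 8 weeks, 3.29 ± 1.64 (SD, n = 3), where its repaired levels were 74.1, 13.8 and 169.6 CPM and its control levels 1.17, 1.1 and 43.3 CPM. Its control was again high in rabbit 4, so these groups overlapped. At 2 weeks FMOD was lower in the repaired muscle of rabbits 60 and 64 (d of −0.94 and −0.81). THBS4 had d of 3.5 ± 0.68, 2.34 ± 3.05, 2.02 ± 2.37 and 2.11 ± 0.49 at the 4 times and was higher in 13 of 16 rabbits. OGN, with d of 2.36 ± 0.43, 2.45 ± 1.68, 2.27 ± 1.2 and 1.09 ± 0.51, was higher in 16 of 16, and at 2 weeks its repaired levels (1231, 101, 147, 635 and 87.7 CPM) all lay above its control levels (47.6, 42.3, 45.2, 45.4 and 47.5 CPM). FMOD and PRELP are neighbouring genes in the order of the RefSeq rabbit assembly mOryCun1.1, with no other protein-coding gene between them; this was the only pair within 5 genes of each other among the 52 named members placed once, which lie on 19 chromosomes or scaffolds.

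KERA, FMOD and THBS4 are 3 of the 4 measured genes of a list of 7 tendon cell markers, so that list is not separate evidence on the members. Its remaining measured gene, MKX, a tendon transcription factor that is no member, was higher in the repaired muscle of 16 of 16 rabbits (d of 0.06 to 3.91), with its highest values in rabbits 59 (3.91) and 62 (2.70). It was under 1 CPM in both shoulders of 7 of these rabbits (5, 60, 61, 63, 64, 67 and 68), where a difference rests on few counts. The summed level of the tendon list ran from 9.57 to 3484 CPM in repaired muscle at 2 weeks, against 17.2 to 34.5 CPM in controls.

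**Figure D2:**
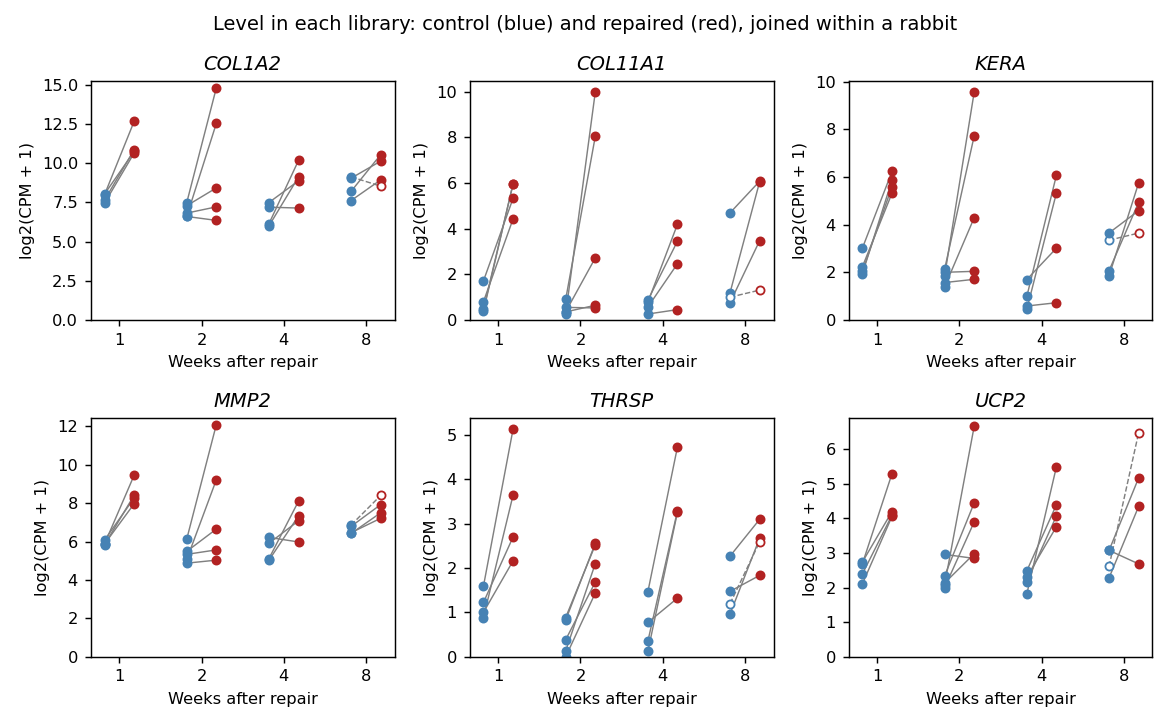
Level of 6 members in each library, as log2(CPM + 1) on the vertical axis, at 1, 2, 4 and 8 weeks after repair, with control (blue) and repaired (red) muscle of a rabbit joined by a line and rabbit 3 drawn open with a dashed line. COL1A2, COL11A1, KERA and MMP2 spread over the widest range at 2 weeks, whereas THRSP was higher in the repaired muscle of each of the 16 rabbits and its differences were closest to each other at 2 weeks (SD of 0.26).

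Among the other matrix glycoproteins, AEBP1, which encodes a collagen-binding protein of the fibroblast matrix, had d of 2.85 ± 0.28, 2.72 ± 2.56, 1.58 ± 1.28 and 1.64 ± 0.15, and FNDC1, a fibronectin-domain protein, 2.95 ± 0.54, 2.36 ± 2.69, 1.44 ± 1.45 and 1.84 ± 0.09 at 1, 2, 4 and 8 weeks. Both stood above every control in all repaired muscles at 1 and at 8 weeks. THBS1, which encodes a matricellular protein able to activate latent TGF-β, had d of 2.5 ± 0.27, 2.4 ± 2.42, 1.38 ± 1.49 and 2.14 ± 0.1, and its 8-week rabbits were close to each other. MFAP4, a microfibril protein of elastic tissue, had d of 2.7 ± 0.86, 2.85 ± 2.34, 2.04 ± 1.33 and 1.26 ± 0.4 and was higher in 16 of 16 rabbits. CILP, a matrix protein of cartilage and of fibrotic muscle tissue, was less far above its control than the other named matrix genes in rabbit 59, where its d of 2.26 was below that in rabbit 62 (3.24), and its mean d was 2.73 ± 0.44, 1.31 ± 1.39, 1.68 ± 1.2 and 0.99 ± 0.49. SVEP1, a large adhesion protein, had d of 2.46 ± 0.46, 2.75 ± 1.9, 1.78 ± 1.33 and 0.81 ± 0.33, and IGFBP6, which binds IGF-II, 1.66 ± 0.54, 1.54 ± 1.83, 1.21 ± 1.5 and 0.81 ± 0.29. These 2 had the smallest 8-week values among the 25 members named by rule.

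MMP2, a gelatinase that cleaves denatured collagen and basement membrane, was at 249, 339, 698 and 307 CPM in repaired muscle at 1 week and at 57.6, 55.9, 57.4 and 66.5 CPM in controls. At 2 weeks it was at 4341, 46.3, 99.4, 593 and 31.7 CPM and 68.8, 39.3, 43.9, 32.5 and 28.3 CPM. Rabbit 59 was again far above the others, and rabbits 60 and 64 fell inside the control range. At 4 weeks the levels were 274, 160.4, 134 and 62 CPM and 33.5, 31.7, 59 and 73.3 CPM, and at 8 weeks 179.8, 147 and 242 CPM and 84.7, 87.2 and 109.6 CPM. At 8 weeks all 3 repaired muscles were above all controls of these rabbits. The mean d was 2.61 ± 0.68, 2.33 ± 2.6, 1.56 ± 1.41 and 0.99 ± 0.21. CTSK, cathepsin K, a lysosomal protease that cuts fibrillar collagen, had d of 2.44 ± 0.58, 2.47 ± 2.27, 1.59 ± 1.67 and 1.09 ± 0.31, and ADAMTS12, a secreted metalloprotease, 2.82 ± 1.14, 2.4 ± 2.42, 2.24 ± 1.14 and 0.82 ± 0.35. ADAMTS12 was higher in all 16 rabbits, CTSK and MMP2 in 15.

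Of the secreted ligands, SLIT3, a guidance ligand of ROBO receptors, was higher in 16 of 16 rabbits, with d of 2.47 ± 0.58, 2.36 ± 1.92, 1.82 ± 1.33 and 1.25 ± 0.4. ANGPTL7, an angiopoietin-like secreted protein, was sparse in controls and irregular between rabbits. It was at 1.38, 5.67, 0.876 and 11.6 CPM in repaired and 0.188, 0.155, 2.11 and 0.13 CPM in control muscle at 1 week, where rabbit 7 went against the other 3. At 8 weeks it was at 24.8, 0.65 and 49.4 CPM and 0.187, 0.1 and 15.9 CPM in rabbits 1, 2 and 4. Its mean d of 2.2 ± 2.00 (SD, n = 3) at 8 weeks thus rested mainly on rabbit 1 (4.44), with 0.58 in rabbit 2. PIEZO2, the mechanically gated ion channel of touch and stretch sensing, was near the floor in controls (at most 2.76 CPM over the 16 rabbits) and had d of 3.3 ± 0.63, 2.75 ± 3.12, 2.23 ± 1.67 and 2.05 ± 0.39. Its repaired levels in rabbits 1, 2 and 4 at 8 weeks, 8.6, 6.8 and 10.4 CPM, were all above the controls. CYP1B1, a cytochrome P450 that acts on steroids and xenobiotics, was higher in 16 of 16 rabbits with d of 1.2 ± 0.77, 2.7 ± 2.06, 1.29 ± 0.96 and 0.85 ± 0.6, and OLFM2, an olfactomedin-domain secreted protein, in 16 of 16 with 1.76 ± 0.71, 1.81 ± 1.36, 0.94 ± 0.25 and 0.81 ± 0.25.

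Of the 28 members with the largest d at 4 weeks, 20 had no symbol. The 8 with a symbol were AQP8, CDO1, MC5R, OR51E2, THRSP, TKT, UCP2 and VNN2, of which 7 were on no list and THRSP on that of lipid synthesis and storage. THRSP, a nuclear protein tied to fatty acid synthesis, was at 3.47, 33.9, 5.49 and 11.5 CPM in repaired and 1, 2.02, 1.34 and 0.846 CPM in control muscle at 1 week. At 2 weeks it was at 2.21, 4.73, 3.28, 4.87 and 1.7 CPM and 0.304, 0.846, 0.0955, 0.776 and 0 CPM. Unlike the collagens, its d in rabbits 60 and 64 (1.63 and 1.43) was no smaller than in rabbit 59 (1.3), and the 2-week groups did not overlap. At 4 weeks it was at 8.57, 8.76, 25.5 and 1.5 CPM and 0.0902, 0.277, 1.76 and 0.708 CPM, with rabbit 68 lowest, and at 8 weeks at 2.56, 5.38 and 7.55 CPM and 1.78, 0.951 and 3.82 CPM. THRSP was higher in 16 of 16 rabbits, with d of 2.23 ± 1.11, 1.61 ± 0.26, 2.47 ± 1.29 and 0.97 ± 0.69. UCP2, a carrier of the inner mitochondrial membrane, was at 44, 15.8, 20.0 and 12.6 CPM in repaired and 2.52, 3.51, 4.6 and 3.95 CPM in control muscle at 4 weeks, where every repaired muscle, rabbit 68 included, stood above every control. It was lower in the repaired muscle of rabbit 1 at 8 weeks (5.43 against 7.44 CPM) and of rabbit 61 at 2 weeks, and its d was 1.93 ± 0.49, 1.86 ± 1.76, 2.23 ± 0.98 and 1.26 ± 1.43. TKT, transketolase of the pentose phosphate pathway, had d of 2.26 ± 0.67, 1.68 ± 1.26, 2.33 ± 1.35 and 0.95 ± 0.6 and CDO1, cysteine dioxygenase, 1.87 ± 1.26, 2.06 ± 0.56, 2.8 ± 1.76 and 1.11 ± 0.14, both higher in 16 of 16 rabbits. AQP8, a water channel, reached 3.77 ± 2.54 (SD, n = 4) at 4 weeks. TKT, CDO1 and AQP8 were picked out after their values were seen. The adipocyte markers measured (2 of 10, ADIPOQ and LIPE, of which ADIPOQ lay just outside the rule and both are set aside from it by name) summed to 322 to 1307 CPM in repaired and 116 to 204 CPM in control muscle at 1 week, 119.8 to 899 and 75.8 to 116 CPM at 2 weeks, 294 to 639 and 61.6 to 171 CPM at 4 weeks, without overlap at these 3 times, and 225 to 422 and 116 to 255 CPM at 8 weeks. Between shoulders the sum was higher by 2.95 on the log2(CPM + 1) scale in rabbits 59 and 62, 1.39 in rabbit 61, 0.66 and 0.65 in rabbits 60 and 64 and 0.78 in rabbit 68; their part in these members' levels was not tested.

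The remaining named members had mean d between 0.83 and 3.77. Among further matrix genes, SRPX, a sushi-domain protein, had mean d of 2.51, 3.22, 2.00 and 0.94 at 1, 2, 4 and 8 weeks, OLFML2B, an olfactomedin-like matrix protein, 2.60, 2.22, 1.58 and 1.15, ABI3BP 1.94, 2.28, 1.53 and 1.17 and FBLN1, fibulin-1 of basement membranes and elastic fibres, 1.55, 2.16, 1.17 and 1.22. COL16A1, a fibril-associated collagen, had 2.45, 2.53, 1.56 and 0.96 and COL8A2, a network-forming collagen, 1.55, 2.20, 0.98 and 1.17. DKK3, a secreted protein of the Dickkopf family, had 1.69, 2.19, 0.85 and 0.97 and ADAMTSL1, a matrix protein related to the ADAMTS proteases, 2.02, 1.48, 1.89 and 1.03.

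Among the remaining members at the cell surface, CDH11, the cadherin of mesenchymal cells, had mean d of 2.19, 2.33, 1.27 and 1.10 and was higher in 16 of 16 rabbits, as was CNTN1, a neural adhesion protein, with 1.84, 2.61, 2.05 and 0.89. VASN, a membrane protein that binds TGF-β, had 2.06, 2.12, 1.09 and 1.18, the receptor phosphatase PTPRD 1.68, 1.72, 1.40 and 0.90, the scavenger receptor SCARA3 1.95, 2.03, 1.23 and 0.98 and the melanocortin receptor MC5R 1.97, 2.25, 2.57 and 0.85. Transcription factors were few. NR4A2, an orphan nuclear receptor and immediate early gene, had 1.58, 1.08, 1.13 and 1.19, and NFATC2, a calcineurin-dependent factor, 1.08, 1.45, 0.95 and 0.83, both higher in 16 of 16 rabbits. At 8 weeks NR4A2 was at 12.7, 23.8 and 9.03 CPM in the repaired muscles of rabbits 1, 2 and 4 and at 10.8, 7.61 and 1.82 CPM in their controls, so the groups overlapped. S100A13 was higher in 16 of 16 rabbits, with 2.86, 1.21, 1.33 and 0.87, and CYGB, cytoglobin, an oxygen-binding protein of fibroblasts, in 16 of 16 with 1.53, 1.41, 1.10 and 0.83. The other named members, ATRNL1, B3GALT2, CARD6, FIBIN, OR51E2, PAMR1 and VNN2, had mean d of at most 2.85 at any time (CARD6 at 2 weeks). The 82 members without a symbol had medians of 2.37, 1.99, 1.77 and 1.03, and the 53 with one 2.12, 2.28, 1.58 and 1.09.

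Among members with no symbol, ENSOCUG00000026651 had the highest mean d of all members at 2 and at 4 weeks (3.49 ± 1.86, 4.41 ± 3.58, 4.6 ± 3.12 and 3.03 ± 0.49 at the 4 times), with 1185, 16, 84 and 8.06 CPM in repaired and 1.44, 1.02, 2.35 and 1.72 CPM in control muscle at 4 weeks. ENSOCUG00000016660 had 5.19 ± 0.86, 4.12 ± 4.15, 2.72 ± 2.04 and 2.18 ± 1.00. Both were chosen after their values were seen, and no role is given for them.

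**Figure D3:**
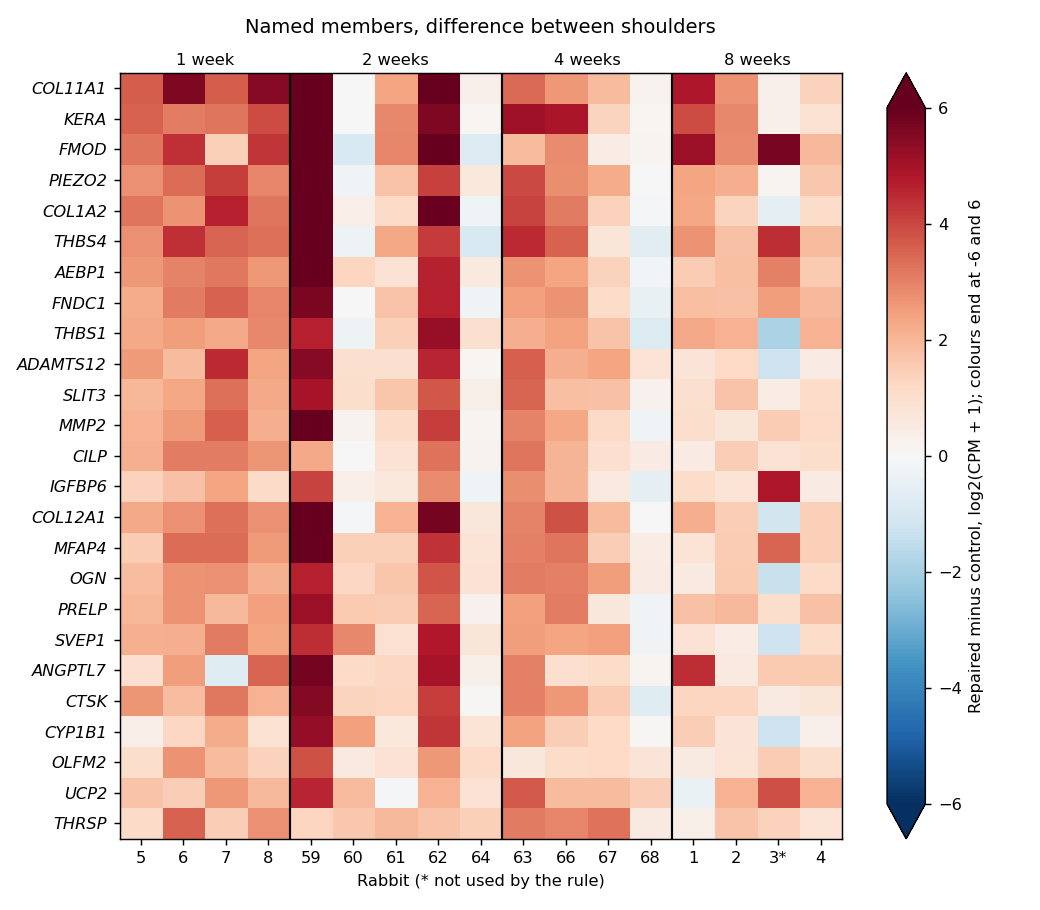
Difference d (repaired minus control, log2(CPM + 1), colour) of the 25 members named by a fixed rule (rows, ordered by the time of the largest d) in each of 17 rabbits (columns, grouped by weeks after repair). Rabbits 59 and 62 are dark red in most matrix genes, rabbits 60, 64 and 68 are near white, and THRSP in the bottom row is higher after repair in rabbits where the collagens are not; rabbit 3 has d from −1.88 (THBS1) to 5.67 (FMOD).

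The mean differences covered large variation between animals. At 1 week the median d over the 135 members was 2.08, 2.39, 2.36 and 2.16 in rabbits 5, 6, 7 and 8. At 2 weeks it was 4.46 in rabbit 59, 3.24 in rabbit 62, and 1.10, 1.08 and 0.74 in rabbits 60, 61 and 64. At 4 weeks it was 2.68, 2.37 and 1.63 in rabbits 63, 66 and 67 and 0.26 in rabbit 68, and at 8 weeks 0.94, 1.39 and 1.05 in rabbits 1, 2 and 4. The 1-week rabbits were thus alike, whereas a given 2-week rabbit could stand above or below all of them. The median member had an SD over repaired libraries, on the log2(CPM + 1) scale, of 0.78, 1.79, 1.08 and 0.66 at the 4 times, against 0.31, 0.37, 0.50 and 0.52 in controls. Over all 10052 genes the corresponding SD in repaired muscle was 0.30, 0.41, 0.25 and 0.27. Without rabbit 59 the members' median d at 2 weeks was 1.59, and without rabbit 68 that at 4 weeks was 2.16. The number of members with the largest d at 2 weeks went from 43 to 6 without rabbit 59, and that at 4 weeks from 28 to 51 without rabbit 68. The time of the largest d therefore moved with single animals.

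**Figure D4:**
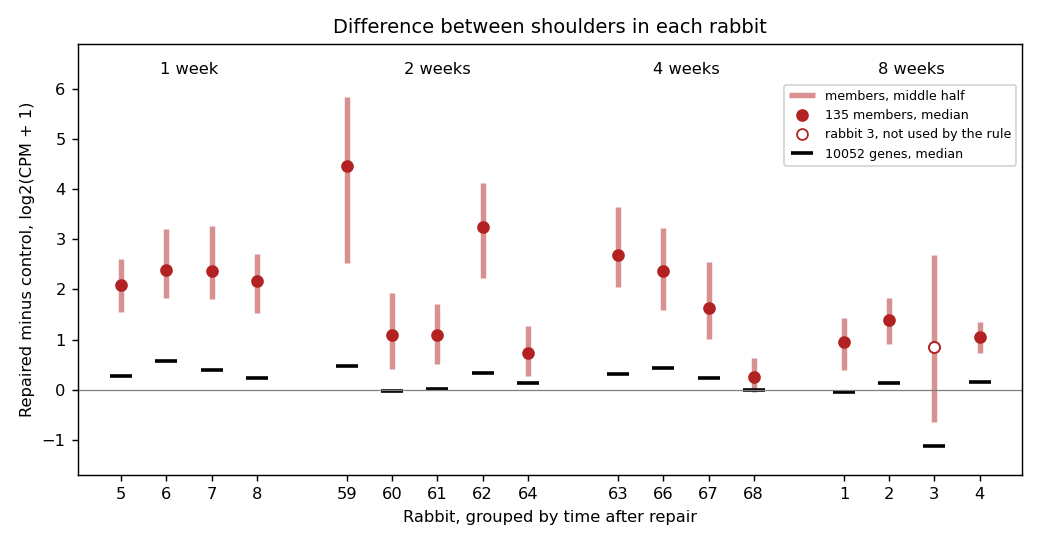
Median d over the 135 members (red points; bars span the middle 50% of the members) and over all 10052 genes (black marks) in each rabbit, on the log2(CPM + 1) scale, grouped by weeks after repair. The 4 rabbits at 1 week lie between 2.08 and 2.39, the 5 at 2 weeks between 0.74 and 4.46, and rabbit 3 (open) was not used by the rule.

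Of the 135 members, 60 were higher in the repaired muscle of all 16 rabbits, or 44.4%, where 4.65% of the 10052 genes were, and the least regular members were higher in 13. As the rule asked for a mean rise at each time, this share is a description of the members. Every repaired muscle was above every control muscle for 117 members at 1 week (37.6% of all genes), 50 at 2 weeks (5.3% of all genes), 61 at 4 weeks (12.6% of all genes) and 52 at 8 weeks (6.96% of all genes). Without rabbit 59 the number at 2 weeks was 57 (8.20% of all genes), without rabbit 68 that at 4 weeks was 130 (37.3% of all genes), and without rabbit 4 that at 8 weeks was 113 (23.4% of all genes). The last count rests on rabbits 1 and 2 alone, so few libraries had to lie apart. Only 11 members, all without a symbol, were free of overlap at all 4 times, where 0.418% of all genes were.

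The 21 collagen, glycoprotein and proteoglycan members moved nearly as a block from animal to animal. Their median d was 6.15 in rabbit 59, 4.36 in rabbit 62 and 1.43 in rabbit 61, but 0.40 in rabbit 60, 0.29 in rabbit 64 and −0.06 in rabbit 68. The 28 members with the largest d at 4 weeks had medians of 2.52, 2.91, 1.91, 2.07 and 1.45 in rabbits 59, 62, 61, 60 and 64 and of 0.57 in rabbit 68. After the mean of each time was subtracted, the median Pearson r across 16 rabbits was 0.90 over the 210 pairs of matrix members, 0.72 over the 378 pairs of 4-week members and 0.39 between the 4-week members and those with the largest d at 1 or 2 weeks; over all 9045 pairs it was 0.57. These values describe animals that share libraries across genes, and the 4-week set was chosen on the same differences. How far r rests on rabbits 59 and 62, which stood far above the other 2-week rabbits, was not tested. Of the 25 named members, MMP2 (r = 0.98), IGFBP6 and CTSK (both 0.97) were most like COL1A2, and THRSP (0.07), UCP2 (0.66) and ANGPTL7 (0.72) were least like it.

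Markers of other cell types, with members left out, differed between the same rabbits. For 8 of 10 fibroblast markers the summed level was higher in the repaired muscle by 4.94 in rabbit 59 and 3.83 in rabbit 62 on the log2(CPM + 1) scale, and by 0.15, −0.18 and −0.27 in rabbits 60, 64 and 68. It ran from 1043 to 62798 CPM in repaired and 1168 to 2049 CPM in control muscle at 2 weeks. This sum includes COL1A1 and COL3A1, which the rule left out by name, so it is not separate from the collagen members. For 8 of 10 macrophage markers the differences were 5.43 and 3.85 in rabbits 59 and 62, −0.42 in rabbit 61 and 0.82, 0.06 and −0.90 in rabbits 60, 64 and 68, with 9.95 to 811 CPM in repaired and 9.51 to 18.8 CPM in control muscle at 2 weeks. For 7 of 9 endothelial markers they were 2.52 and 1.36 in rabbits 59 and 62 and at most 0.57 in rabbits 60, 64 and 68. The 5 measured muscle fibre markers differed by −0.37 and −0.74 in rabbits 59 and 62 and by 0.49, 0.09 and 0.52 in rabbits 60, 64 and 68. In the other rabbits used by the rule the fibre markers went in both directions, from −1.98 in rabbit 6 to 0.47 in rabbit 63. The median d of the members was 2.39 and 2.68 in these 2 rabbits. No measured marker of these lists was at 0 throughout a group. Their part in the members' differences was not tested. The totals of the libraries of rabbits 59 and 68 (9859418 to 10673900 counts) were close to each other, but their TMM factors were not. The factor was 1.68 in the repaired and 0.96 in the control muscle of rabbit 59, and 0.95 and 0.97 in rabbit 68.

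Rabbit 3, whose left library was removed by the study and was not used by the rule, gave a mixed picture. 84 of the 135 members (62.2%) were higher in its repaired muscle, where 32.5% of the 10052 genes were, with a median d of 0.84 for members and −1.12 for all genes. With TMM scaling, 93 members were higher. FMOD (d of 5.67), IGFBP6 (4.86), THBS4 (4.43), UCP2 (3.86), MFAP4 (3.50) and AEBP1 (3.02) were among the higher, whereas THBS1 (−1.88), OGN (−1.35), ADAMTS12 (−1.25), SVEP1 (−1.25), CYP1B1 (−1.22), COL12A1 (−1.11) and COL1A2 (−0.60) were lower. The 21 matrix members went in both directions in this pair (13 higher), as they did in rabbits 60 (13 higher), 64 (14) and 68 (7), whereas all 21 were higher in each of the other 13 rabbits. 11 of the 16 glycoprotein and proteoglycan members and 2 of the 5 collagen members were higher. It is 1 pair with the shallowest library and no replicate.

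In the fit across all 12937 genes that passed 1 CPM in at least 1 library, limma-voom called 63 members higher after repair at 1 week (6.81% of all genes tested were), 53 at 2 weeks (7.95%), 2 at 4 weeks (0.0773%) and 0 at 8 weeks (0.00773%). Nothing is read from these counts, since the rule used the same contrasts. With the rabbit as a block they were 95, 82, 12 and 0 by an estimated correlation (0.174) and 127, 127, 45 and 0 with a coefficient for each rabbit. The share of all genes called by the blocked fits is not given here, so nothing is read from their counts either. At 8 weeks 37 members had an unadjusted p under 0.05 by limma-voom, and edgeR and DESeq2 also called 0.

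Whether the members were lower at later times in the repaired muscle itself was tested between times, a contrast that the rule did not use, although it used the same libraries, so that the members were not chosen independently of it. From 1 to 8 weeks, 106 of 135 members had a log2 fold change below 0 in repaired muscle, with a median of −0.54 against −0.04 over all genes. limma-voom called 0 of the 135 lower (0.0309% of all genes) and 0 higher (0.0541%), with 14 and 1 at an unadjusted p under 0.05, and edgeR and DESeq2 called 0 in each direction. The member nearest to the threshold was ENSOCUG00000016048 (log2 fold change of −2.44 ± 0.57 SE, limma-voom adjusted p = 0.0677). S100A13, a calcium-binding protein, had −1.35 ± 0.48 SE (limma-voom adjusted p = 0.259), COL1A2 −0.98 ± 1.22 SE (limma-voom adjusted p = 0.772) and MMP2 −0.63 ± 0.89 SE (limma-voom adjusted p = 0.80). Some matrix genes were higher at 8 weeks than at 1 week, such as FMOD by 1.10 ± 1.07 SE (limma-voom adjusted p = 0.704) and THBS1 by 0.98 ± 0.88 SE (limma-voom adjusted p = 0.681), within the spread between rabbits. Without the repaired library of rabbit 59, which belongs to neither time, limma-voom called 3 members lower.

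Control muscle stood the other way over the same weeks. From 1 to 8 weeks 114 of 135 members had a log2 fold change above 0 in controls, with a median of 0.45 where that of all genes was 0.00, and limma-voom called 0 in either direction (0% of all genes lower and 0% higher), with 1 lower and 0 higher at an unadjusted p under 0.05 and 0 by edgeR and DESeq2. In the 8-week controls (4 libraries, rabbit 3 included) COL1A2 was higher by 0.73 ± 0.91 SE and CILP by 0.86 ± 0.47 SE on the log2 scale. THBS4 was higher by 1.03 ± 0.97 SE and COL11A1 by 1.66 ± 2.83 SE, with COL11A1 at 24.9 CPM in the control of rabbit 4 and at 1.31, 0.701 and 1.01 CPM in those of rabbits 1, 2 and 3. The median also rested in part on the control of rabbit 4: as a difference of mean log2(CPM + 1), the median member was 0.36 higher in controls at 8 weeks than at 1 week, and 0.13 higher without rabbit 4, where 93 members were above 0. The smaller d at 8 weeks thus went with lower values in repaired and higher values in control muscle, neither called by limma-voom for any member. Controls were the opposite shoulders of the operated rabbits, and unoperated animals were not analysed here.

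From 2 to 4 weeks the members' median change in repaired muscle was −0.53 against −0.03 over all genes, with 92 of 135 below 0. limma-voom called 0 lower and 0 higher (0% of all genes in each direction), with 4 and 11 at an unadjusted p under 0.05. edgeR called 0 in each direction, whereas DESeq2 called 18 lower and 1 higher. Over all genes DESeq2 called 71 lower and 31 higher. SVEP1 was lower by 1.22 ± 0.55 SE on the log2 scale (limma-voom adjusted p = 0.549) and THRSP higher by 1.44 ± 0.69 SE (limma-voom adjusted p = 0.591). In control muscle the median was 0.00, and limma-voom called 0 in either direction (3 lower and 0 higher at an unadjusted p under 0.05), edgeR 0 and DESeq2 1 lower (4 lower over all genes). ENSOCUG00000016603 changed by −2.32 ± 0.49 SE in repaired muscle (limma-voom adjusted p = 0.147) and by −3.91 ± 1.01 SE in control muscle (limma-voom adjusted p = 1.00); it was lower at 4 weeks in both shoulders.

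**Figure D5:**
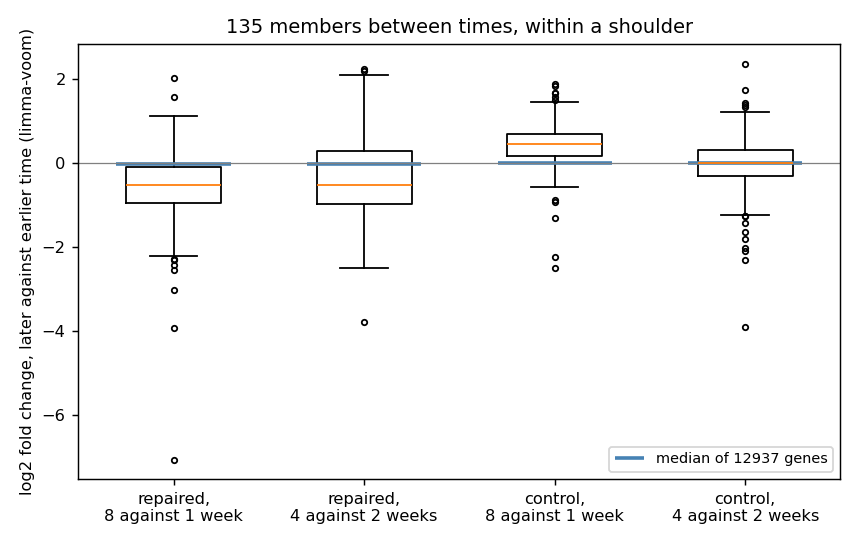
Change of the 135 members between times within repaired or within control muscle, as log2 fold change from limma-voom of the later against the earlier time (boxes show the middle 50%, whiskers reach 1.5 times that length, circles lie beyond), with the median of all 12937 genes in blue. Medians were −0.54 and −0.53 in repaired muscle and 0.45 and 0.00 in control muscle.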

How the data were processed

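The authors checked reads with FastQC, aligned them with STAR to the rabbit genome OryCun2.0 with Ensembl annotation, and deposited RSEM expected counts per gene, not normalized, for 34 libraries. CPM was the count over its column sum, and d was computed with a pseudocount of 1 CPM. Genes over 1 CPM in at least 1 library (12937) from 33 libraries were fitted by limma-voom under R 4.3.3, with the packages edgeR 4.0.16 (TMM factors) and limma 3.58.1, as 8 groups of time and shoulder, with Benjamini-Hochberg adjustment over all of them and a threshold of 0.05; the fit was tested on simulated data. edgeR quasi-likelihood, DESeq2 1.42.0 (counts rounded), other filters, rabbit blocks and left-out libraries were alternatives. The shoulders of a rabbit are pairs: their residuals correlated at 0.0252 to 0.434 (16 pairs, median 0.257). p-values of the main fit measure the spread between rabbits within a group, pooled over the 8 groups, and leave out the pairing of shoulders. The members, gene lists, markers and tests were chosen with earlier results of these data known. 25 members with a symbol were named by rule: the 15 with the largest smallest d over the times, the 10 with the highest mean CPM, up to 2 per role list by mean d, and those closest to 0.8. Symbols (53 of 135 members) came from identifier pairs in the study's tables and gene order from RefSeq.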

Additional observations from a re-analysis of the deposited data

Results flagged for a closer look

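At 4 weeks after repair, 2 named members had 1 rabbit far from the other 3, and it was rabbit 68 in both. SVEP1 had a difference between shoulders of −0.21 in rabbit 68, with a gap to the nearest rabbit of 0.954 of the whole range over the 4 rabbits. THRSP had 0.55 in rabbit 68, with a gap of 0.879 of the range. In all, 81 groups of 4 or 5 values were examined and 2 passed the critical value of the Dixon test (0.829 for 4 values), where chance gives about 5% of groups.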

How the results depend on the processing

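The number of member genes was 135, and 67 with a d of at least 1; with 1 rabbit left out it was 103 to 192. The median d at 1 week was 2.26, and 1.86 under TMM scaling. Of the members, 61 were free of overlap at 4 weeks (12.6% of all genes), and 130 without rabbit 68 (37.3% of all genes). At 8 weeks 52 were (6.96% of all genes), and 113 without rabbit 4 (23.4% of all genes), where only rabbits 1 and 2 remained.

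The counts of members called higher after repair moved most. The shares of all genes called under the other settings are not given, so only the movement of the counts is described. At 1 week limma-voom called 63 members, DESeq2 111 and the fit on all 34 libraries 26; with the replicate block of rabbits limma-voom called 95 (estimated correlation) or 127 (a coefficient per rabbit). Leaving out 1 library gave 27 to 110: 27 without the control of rabbit 5, 31 without the control of rabbit 7, 34 without the control of rabbit 8, 35 and 39 without the repaired muscles of rabbits 7 and 6, and 110 without the repaired muscle of rabbit 59. At 2 weeks limma-voom called 53, edgeR 126, DESeq2 128 and the blocked fits 82 or 127. Leaving out 1 library gave 13 to 96: 13 and 18 without the repaired muscles of rabbits 59 and 62, 18 to 29 without the control of any 1 of the 5 rabbits, and 96 without the repaired muscle of rabbit 64. At 4 weeks limma-voom called 2, 6 with no filter, edgeR 41, DESeq2 63, all 34 libraries 1 and the blocked fits 12 or 45. Leaving out 1 library gave 1 to 31: 31 and 17 without the repaired muscles of rabbits 68 and 59, 6 without that of rabbit 6 or 64, 4 without that of rabbit 1, and 1 without the repaired muscle of rabbit 63, 66 or 67 or the control of rabbit 66. At 8 weeks the count was 0, and 0 to 1 with 1 library left out (1 without the repaired muscle of rabbit 1).

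Between times, the count of members lower in repaired muscle at 8 weeks than at 1 week was 0 by limma-voom, 1 with no filter (33 over all genes), and 0 to 3 with 1 library left out (3 without the repaired muscle of rabbit 59, 1 without that of rabbit 6, 8 or 61). At 4 against 2 weeks DESeq2 called 18 lower in repaired muscle (71 over all genes) and 1 lower in control muscle (4 over all genes), where limma-voom called 0. The causes were not tested. For single named members, 4100 values under alternatives held 0 reversed directions; 16 lost and 97 gained their call under other settings, and 111 and 52 with 1 library left out. The replicate block changed no call between times. A search of promoter motifs was not run, since no promoter sequences were given. Median totals per group differed between the 2 series of libraries (10467247 counts in the 2-week controls and 17651293 in the 1-week controls), and what depth adds to the error was not tested.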
